A study of Mus musculus with 8 samples.

Results

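The 10 enzymes described here, Hk2, Gpi1, Pfkl, Aldoa, Tpi1, Gapdh, Pgk1, Pgam1, Eno1 and Ldha, catalyse glycolysis from hexokinase to enolase and the lactate dehydrogenase reaction, with pyruvate kinase not among them. They were taken by symbol, with earlier results of these data known. All 10 were found among the 23469 gene symbols of both deposited tables of germinal centre (GC) B cells. RNA was sequenced from sorted GC B cells of C57BL/6 mice in 2 experiments, each with 1 Irf8 cKO library (Irf8flox/flox with Cre) and 1 Ctrl library (Irf8+/+ with Cre), so n = 2 per group. The mice had received NP-KLH 13 days earlier, and the cells were sorted as B220+, with high FAS and high GL7. Both genotypes carry the same heterozygous Cre allele, which acts in B cells at large and not in GC B cells alone. The labels state neither the age of the mice nor whether animals were pooled. Nothing in the labels says that the libraries of a group came from separate animals, and p-values then measure the spread between these samples, which may be technical. The 4 samples of lipopolysaccharide-activated B cells in the series were not analysed here.

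Glycolysis splits glucose into pyruvate in the cytosol. Its early steps spend ATP to phosphorylate and cleave the sugar, its later steps return ATP and NADH, and lactate dehydrogenase turns pyruvate into lactate and restores NAD+. Resting B cells use little glucose, activated B cells raise uptake and glycolytic enzymes, and GC B cells divide fast in a tissue with poorly oxygenated zones. MYC and the hypoxia factor HIF1A are textbook activators of these genes. IRF8 is a transcription factor of B and myeloid cells, and the sources used here do not say which of its exons Cre removes.

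Some features of all 4 libraries bear on every value below. Read totals, estimated from the spacing of low values, were 76.3 M and 64.0 M reads (M, mega) in Irf8 cKO 1 and 2, against 73.4 M and 63.3 M reads in Ctrl 1 and 2. Genes at 1 RPKM (reads divided by transcript length and by the size of the library) or more numbered 6171 and 4845 in Irf8 cKO 1 and 2, against 6566 and 6433 in Ctrl 1 and 2, so Irf8 cKO 2 stood apart with the fewest. The median log2 ratio of Irf8 cKO over Ctrl over all 6446 tested genes was -0.35 as deposited, with -0.18 in experiment 1 and -0.51 in experiment 2. Each tested member is therefore given as deposited and after median-of-ratios scaling. This scaling divides each library by its median ratio to the mean library and brings the all-gene median to 0.0035. Irf8 itself measured 20.7 and 11.6 RPKM in Irf8 cKO 1 and 2, against 14.5 and 14.9 RPKM in Ctrl 1 and 2. After scaling both Irf8 cKO values of Irf8, 19.4 and 17.7 RPKM, lay above both Ctrl values, 11.35 and 13.1 RPKM, the opposite of a lower transcript. The same held for 15.8% of tested genes after scaling. These values cover all exons of Irf8, including any that Cre leaves in place, so the genotypes cannot be checked from them, and Irf8 cKO below means a library labelled so. The 14 GC B cell markers measured were all at 1 RPKM or more in at least 1 library, summing to 432 and 293.9 RPKM in Irf8 cKO 1 and 2, against 575.8 and 522.3 RPKM in Ctrl 1 and 2. Neutrophil and macrophage markers summed to 22.7 and 3.74 RPKM in Irf8 cKO 1 and 2, against 82.5 and 11.6 RPKM in Ctrl 1 and 2, and S100a8, S100a9 and Ngp, granule genes of neutrophils, were called lower in Irf8 cKO as deposited, at log2 ratios of -1.72, -1.67 and -1.50. After median-of-ratios scaling the ratios were -1.42, -1.35 and -1.28 without a call (limma adjusted p = 0.322, 0.233 and 0.0512), and after scaling to equal sums without Rn45s all 3 were called. Leaving out Irf8 cKO 2 or Ctrl 1 ended each of these calls as deposited, as did leaving out Ctrl 2 for Ngp. None of these 12 markers was at 0 in all libraries. T cell markers summed to 5.08 and 2.73 RPKM in Irf8 cKO, against 3.66 and 3.33 RPKM in Ctrl, nearly all of it Lck, with Cd3g at 0 in every library. None of the 8 erythroid markers reached 1 RPKM in any library. The part of other cells in the enzyme values was not tested.

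In the mm10 coordinates of the tables, whole gene spans with exons and introns, Hk2 (NM_013820) lies at chr6:82725027-82774454 and Gpi1 (NM_008155) at chr7:34201327-34230305, both on the minus strand. Pfkl (NM_008826) lies at chr10:77986949-78009796 and Tpi1 (NM_009415) at chr6:124810592-124814296, also on the minus strand. Aldoa, with 3 RefSeq transcripts in 1 entry, spans chr7:126795234-126800447 and Gapdh (NM_008084) chr6:125161852-125165583, both on the minus strand. On the plus strand are Pgk1 (NM_008828) at chrX:106187124-106203699, Pgam1 (NM_023418) at chr19:41911871-41918665, Eno1 (NM_023119) at chr4:150237197-150248873, and Ldha, with 3 RefSeq transcripts in 1 entry, at chr7:46847082-46855627.

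The promoters of 4 members show how the genes differ in a motif tied to their textbook regulation. ACGTG, the core of the hypoxia response element bound by HIF1A, was searched on both strands from 250 bases before to 50 bases after each start in RefSeq promoters of GRCm38.p6. For each member only the promoter nearest the start of its entry was searched, so any other promoter of the gene is not covered. The promoters compared were all distinct windows, not limited to 1 per gene. ACGTG was found in 4 of 10 members, Hk2 and Pgk1 with 2 matches each and Pgam1 and Gapdh with 1 each, and in 19.71% of 32544 promoters. The single Gapdh match lay 42 bases after the start, and the start in the tables lies 190 bases from the RefSeq start for Gapdh and 24 bases from it for Pgk1. Shown 5′ to 3′ on the gene's strand, with each match in capitals (CACGT is the same motif read on the other strand), are the promoters with a match before the start and that of Ldha, which had no match in this window.
Hk2 (chr6:82774405-82774704, minus strand): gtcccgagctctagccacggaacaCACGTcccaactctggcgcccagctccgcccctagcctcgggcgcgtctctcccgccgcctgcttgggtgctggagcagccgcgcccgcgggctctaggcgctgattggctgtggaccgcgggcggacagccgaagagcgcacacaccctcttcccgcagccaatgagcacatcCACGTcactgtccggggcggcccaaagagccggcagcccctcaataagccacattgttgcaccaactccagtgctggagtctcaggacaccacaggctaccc
Pgk1 (chrX:106186850-106187149, plus strand): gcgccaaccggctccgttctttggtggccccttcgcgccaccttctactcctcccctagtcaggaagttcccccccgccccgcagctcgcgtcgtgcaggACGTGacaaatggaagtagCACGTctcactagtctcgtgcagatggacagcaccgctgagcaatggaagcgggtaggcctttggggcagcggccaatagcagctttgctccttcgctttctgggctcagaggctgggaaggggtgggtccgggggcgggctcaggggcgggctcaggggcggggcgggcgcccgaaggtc
Pgam1 (chr19:41911621-41911920, plus strand): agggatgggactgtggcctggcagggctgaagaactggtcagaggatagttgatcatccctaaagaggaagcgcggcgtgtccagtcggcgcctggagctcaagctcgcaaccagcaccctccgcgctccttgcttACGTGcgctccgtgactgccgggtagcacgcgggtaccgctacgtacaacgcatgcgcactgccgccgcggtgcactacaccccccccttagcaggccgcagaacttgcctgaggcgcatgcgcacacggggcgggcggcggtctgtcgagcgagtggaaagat
Ldha (chr7:46846832-46847131, plus strand): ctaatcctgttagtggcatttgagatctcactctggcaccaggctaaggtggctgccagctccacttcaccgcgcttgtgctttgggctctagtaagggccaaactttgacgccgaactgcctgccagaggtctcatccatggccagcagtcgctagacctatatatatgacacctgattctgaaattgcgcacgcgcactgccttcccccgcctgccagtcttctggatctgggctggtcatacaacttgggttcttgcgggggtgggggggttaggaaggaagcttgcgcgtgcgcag
The Hk2 matches begin 226 and 52 bases before the start, those of Pgk1 150 and 131 bases before it, and that of Pgam1 114 bases before it. The E-box CACGTG, the site of MYC and MAX, was in 0 of 10 members and in 7.17% of all promoters. The composite site GGAANNGAAA of ETS factors with IRF4 or IRF8 was in 0 of 10 members and 2.73% of all promoters, and the interferon response core GAAANNGAAA in 0 of 10 members and 3.45% of all. Every CACGTG holds an ACGTG on each strand, so those motifs overlap. A match is a description of letters, and its absence here says only that these letters are not in these windows.

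No glycolytic enzyme was called lower or higher in Irf8 cKO GC B cells. Of the 10 members, 7 passed the filter of 1 RPKM or more in at least 2 libraries, and 0 of these 7 were called lower, beside 70 of all 6446 tested genes (1.09%). None of the 7 was called higher, beside 6 of all tested genes (0.0931%; limma on log2(RPKM + 1) with the experiment as a block, Benjamini-Hochberg adjusted p under 0.05). At an unadjusted p under 0.05 Gapdh and Ldha were lower and no member was higher, beside 1197 lower and 17 higher of the 6446 tested genes. After scaling, 0 of 7 were called in either direction, beside 3 genes lower (0.0465%) and 1 gene higher (0.0155%) of 6446, and at an unadjusted p under 0.05 there was no member, beside 295 genes lower and 383 higher. The fit has 1 residual degree of freedom, and a p that misses the threshold does not show equal levels.

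**Figure D1:**
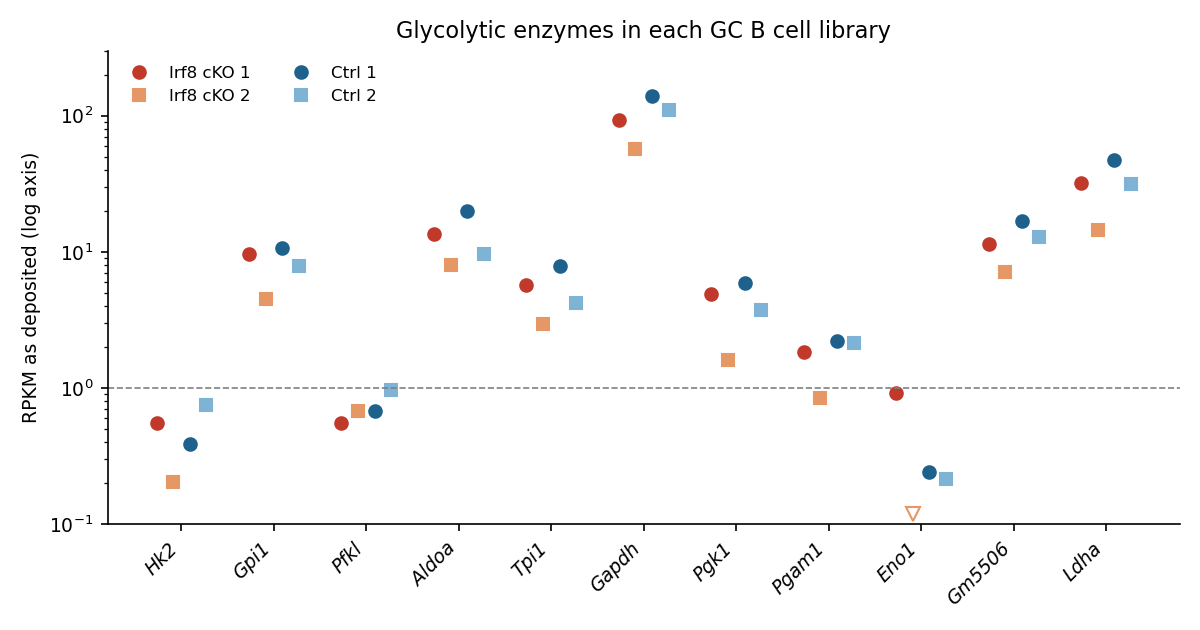
RPKM as deposited (log axis) of the 10 enzymes and of the entry Gm5506, which lies on the Eno1 locus, in pathway order; red and orange points are Irf8 cKO 1 and 2, dark and light blue points are Ctrl 1 and 2, the dashed line is 1 RPKM and the open triangle marks a value listed at 0. Gapdh stands highest, at 93.6 and 57.0 RPKM in Irf8 cKO and 139.2 and 110.4 RPKM in Ctrl, and Irf8 cKO 2 is the lowest library for 9 of the 10 enzymes.

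By level the enzymes of these cells formed a steep order. On the per-length RPKM scale Gapdh ranked 19 and 20 among all symbols in Irf8 cKO 1 and 2, against 17 and 15 in Ctrl 1 and 2. Ldha ranked 127 and 180 in Irf8 cKO 1 and 2, against 120 and 133 in Ctrl 1 and 2. Aldoa, Gpi1, Tpi1, Pgk1 and Pgam1 followed in this order of mean RPKM in both groups, and Pfkl, Hk2 and Eno1 stayed under 1 RPKM in every library. Within each of the 4 libraries the order from Gapdh to Pgam1 was the same. Across libraries the range of Aldoa overlapped those of Ldha and Gpi1. The ranges of Gpi1, Tpi1 and Pgk1 overlapped each other, as did those of Pgk1 and Pgam1. The 10 enzymes together summed to 163.4 and 90.3 RPKM in Irf8 cKO 1 and 2, against 234.9 and 171.7 RPKM in Ctrl 1 and 2. As a share of all RPKM without the ribosomal precursor Rn45s that was 0.453% and 0.389% in Irf8 cKO, against 0.499% and 0.451% in Ctrl, lower in Irf8 cKO within each experiment while the groups overlapped across experiments by a small margin. Gapdh alone made up 57.3% and 63.1% of the members' sum in Irf8 cKO, against 59.3% and 64.3% in Ctrl, higher in experiment 2 in both groups.

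Of the enzymes that prepare and cleave the sugar, none was called. Hk2, the hexokinase induced in dividing cells, which traps glucose as glucose 6-phosphate, measured 0.555 and 0.204 RPKM in Irf8 cKO 1 and 2, against 0.392 and 0.752 RPKM in Ctrl 1 and 2. It was higher in Irf8 cKO in experiment 1 and lower in experiment 2, lay under the filter and was not tested. Gpi1, the isomerase that makes fructose 6-phosphate, measured 9.69 and 4.51 RPKM in Irf8 cKO, against 10.75 and 7.90 RPKM in Ctrl. Only Irf8 cKO 2 lay below both Ctrl libraries, and the log2 ratio was -0.41 ± 0.33 (SE; limma adjusted p = 0.416) as deposited and 0.04 ± 0.16 after scaling (adjusted p = 0.948). Pfkl, the liver-type subunit of phosphofructokinase, the committed step, measured 0.552 and 0.675 RPKM in Irf8 cKO, against 0.684 and 0.971 RPKM in Ctrl. Both Irf8 cKO values were below both Ctrl values by a small margin at an estimated 157 and 161 reads, against 187 and 229 reads in Ctrl, and on the log2(RPKM + 1) scale the scaled ratios were -0.02 in experiment 1 and 0.13 in experiment 2.

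Aldoa, the aldolase that splits the hexose into trioses, measured 13.5 and 7.97 RPKM in Irf8 cKO 1 and 2, against 19.9 and 9.67 RPKM in Ctrl 1 and 2. The groups overlapped, since experiment 1 was higher than experiment 2 in both. Its log2 ratio of -0.39 ± 0.34 (SE; limma adjusted p = 0.451) became 0.09 ± 0.21 after scaling (adjusted p = 0.904), and the experiments then gave -0.28 and 0.46. Tpi1, which interconverts the trioses, measured 5.73 and 2.96 RPKM in Irf8 cKO, against 7.84 and 4.21 RPKM in Ctrl. It showed the same split, with overlapping groups, a log2 ratio of -0.40 ± 0.31 (SE; limma adjusted p = 0.412) as deposited, and scaled ratios of -0.17 in experiment 1 and 0.22 in experiment 2.

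Of the members at the steps after the trioses, none was called either. Gapdh, which oxidises the triose and makes NADH, measured 93.6 and 57.0 RPKM in Irf8 cKO 1 and 2, against 139.2 and 110.4 RPKM in Ctrl 1 and 2. Both Irf8 cKO values lay below both Ctrl values, with a log2 ratio of -0.75 ± 0.32 (SE; limma adjusted p = 0.222). After scaling, Gapdh stood at 87.8 and 86.6 RPKM in Irf8 cKO, against 109.1 and 97.2 RPKM in Ctrl, still without overlap, and the log2 ratio was -0.24 ± 0.26 (SE; limma adjusted p = 0.786). Pgk1, the kinase that yields the ATP of the next step, measured 4.93 and 1.61 RPKM in Irf8 cKO, against 5.96 and 3.75 RPKM in Ctrl. The groups overlapped with Irf8 cKO 2 far below the other libraries, and the scaled ratios were -0.01 in experiment 1 and -0.32 in experiment 2 (-0.16 ± 0.16 over both, SE; limma adjusted p = 0.749). Pgam1, the mutase that moves the phosphate, measured 1.84 and 0.842 RPKM in Irf8 cKO, against 2.23 and 2.15 RPKM in Ctrl. The groups did not overlap, but the same split held: -0.01 in experiment 1 and -0.34 in experiment 2 after scaling (-0.18 ± 0.16 over both, SE; limma adjusted p = 0.735). Without Irf8 cKO 1, in a fit with no block, Pgk1 and Pgam1 as deposited passed the test (limma adjusted p = 0.0110 and 0.0289), as did 1450 of all genes.

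Ldha, the lactate dehydrogenase subunit of fermenting cells, measured 31.98 and 14.6 RPKM in Irf8 cKO 1 and 2, against 47.7 and 31.7 RPKM in Ctrl 1 and 2. The groups met at 31.98 RPKM in Irf8 cKO 1 and 31.7 RPKM in Ctrl 2, while within each experiment the Irf8 cKO value was the lower. Its log2 ratio was -0.81 ± 0.35 (SE; limma adjusted p = 0.226), the lowest of the 7 tested members. Scaling left it the lowest, at -0.31 ± 0.19 (SE; limma adjusted p = 0.608). The scaled ratio of Ldha was -0.31 in experiment 1 and -0.32 in experiment 2, and 8.16% of tested genes had a lower scaled ratio. Of all members it had the closest ratios in the 2 experiments after scaling, but the change did not pass the test. With the variance trend left out of limma, Ldha as deposited had an adjusted p of 0.0424, in a setting that called 277 of all genes lower, and after scaling 0.521.

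**Figure D2:**
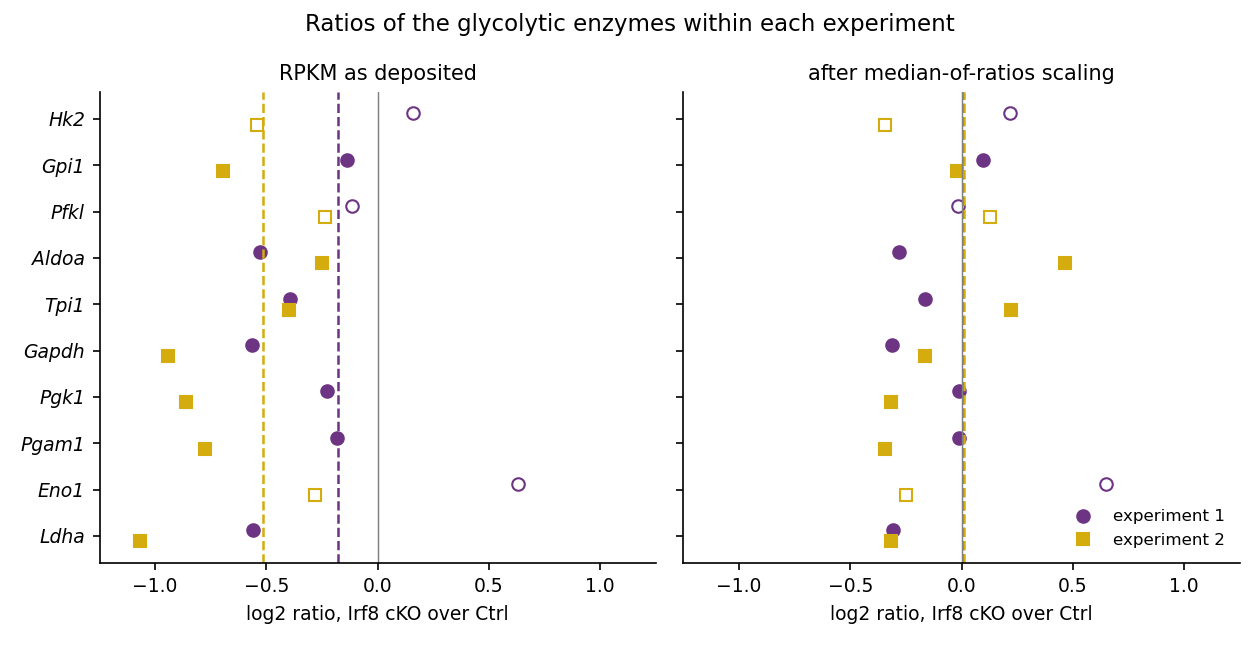
Log2 ratio of Irf8 cKO over Ctrl on the log2(RPKM + 1) scale for each enzyme within experiment 1 (purple circles) and experiment 2 (yellow squares), as deposited on the left and after median-of-ratios scaling on the right; open symbols are enzymes under the filter and dashed lines are the medians of all tested genes. As deposited the 7 filled pairs lie below 0, with member medians of -0.39 and -0.77 in experiments 1 and 2 beside all-gene medians of -0.18 and -0.51, and after scaling Gapdh, Pgk1, Pgam1 and Ldha stay below 0 in both experiments.

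Over the tested enzymes, all 7 had ratios below 0 in both experiments as deposited, and so had 71.24% of all tested genes. After scaling 4 of 7 had ratios below 0 in both experiments, beside 27.29% of all tested genes. Their median log2 ratio was -0.48 as deposited, against -0.35 over all tested genes, and -0.16 after scaling, against 0.0035. Both Irf8 cKO values lay below both Ctrl values for 3 of the 10 members (Gapdh, Pgam1 and Pfkl) and for 44.7% of tested genes. After scaling this held for 2 members (Gapdh and Pgam1) and 15.4% of tested genes. Scaled Pgam1 was apart by a small margin, at 1.73 RPKM in Irf8 cKO 1 against 1.74 RPKM in Ctrl 1. The counts out of 10 include the 3 members under the filter, Pfkl among them, while the shares are over tested genes. The lowest library was Irf8 cKO 2 for 9 of 10 members, the exception being Pfkl, and for 85.4% of tested genes. The highest library was Ctrl 1 for 7 of 10 members and for 55.8% of tested genes. In these sorted cells, less RNA of an enzyme per cell and fewer cells expressing it cannot be told apart.

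Among 600 other genes with a mean of 10 RPKM or more, the profiles closest to the mean profile of the 10 members over the 4 libraries were those of Hmgb2, Rbm39, Sema4d, Snx5 and Hmgb1. Their root mean square differences from it ran from 0.0255 to 0.0444 on the log2 scale. Hmgb2, a chromatin protein abundant in dividing cells, measured 21.6 and 13.1 RPKM in Irf8 cKO 1 and 2, against 24.96 and 20.7 RPKM in Ctrl 1 and 2. Irf8 cKO 2 was its lowest and Ctrl 1 its highest library, which follows from its choice by likeness to the mean profile. Irf8 cKO 2 was also the lowest library for 85.4% of tested genes and Ctrl 1 the highest for 55.8%.

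Enolase, which makes phosphoenolpyruvate, was split over a pair of entries. The entry Eno1 measured 0.927 RPKM in Irf8 cKO 1 and was listed at 0 in Irf8 cKO 2, against 0.243 and 0.214 RPKM in Ctrl 1 and 2. It was thus the highest of all libraries in Irf8 cKO 1 and the lowest in Irf8 cKO 2. A second entry, Gm5506 (NM_001025388), was placed in the tables at chr4:150237324-150248873 on the plus strand, over 98.9% of the Eno1 span, although RefSeq names that transcript Eno1b and places it on another chromosome. Gm5506 measured 11.5 and 7.08 RPKM in Irf8 cKO 1 and 2, against 16.8 and 12.8 RPKM in Ctrl 1 and 2. Eno1 held 7.47% of the sum of both entries in Irf8 cKO 1 and 0% in Irf8 cKO 2, against 1.43% and 1.64% in Ctrl 1 and 2, so nearly all of the signal stood under the other name. Of the 50-base stretches of the Eno1 transcript, 70.5% also occur in Eno1b, and the sources used here do not say how the authors' counting shared such reads.

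**Figure D3:**
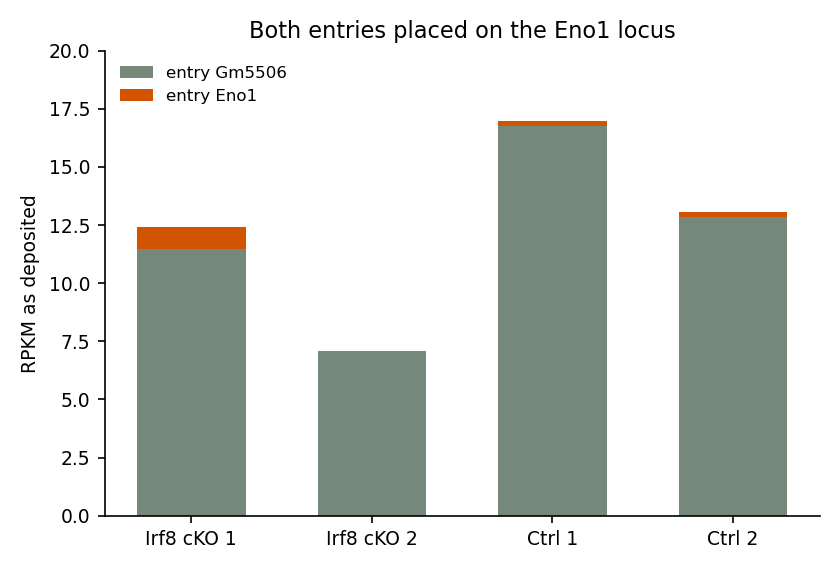
RPKM as deposited of the entries Gm5506 (grey) and Eno1 (orange), stacked, in Irf8 cKO 1 and 2 and Ctrl 1 and 2. The bars reach 12.4 and 7.08 RPKM in Irf8 cKO and 17 and 13.0 RPKM in Ctrl, and the orange part is visible mainly in Irf8 cKO 1.

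The sum of both entries was 12.4 and 7.08 RPKM in Irf8 cKO 1 and 2, against 17 and 13.0 RPKM in Ctrl 1 and 2. Read this way, enolase ranked among the abundant enzymes, near Aldoa. As deposited, both Irf8 cKO values of the sum lay below both Ctrl values by a small margin, a pattern of 44.7% of tested genes. Its log2 ratio was -0.61 ± 0.34 (SE; limma adjusted p = 0.292) as deposited and -0.13 ± 0.17 after scaling (adjusted p = 0.813), so it did not pass the test either. The sum was formed after the overlap had been seen. In the authors' deposited table Eno1 alone has a log2 ratio of 2.16 (unadjusted p = 0.00735) in experiment 1 and -7.56 (unadjusted p = 0.102) in experiment 2, and Gm5506 has -0.341 (unadjusted p = 0.309) and -0.137 (unadjusted p = 0.726). That single Eno1 value is the only one of the 20 for the members in the authors' deposited table with p under 0.05, it rests on an estimated 143 reads in Irf8 cKO 1 against 36 in Ctrl 1, and it stands on the entry that shares its locus.

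Several members share sequence with processed copies elsewhere in the genome, which limits how surely reads belong to them. Of the 50-base stretches of the GENCODE transcript matched to each enzyme, the share also present in another annotated gene was 82.5% for Gapdh, 72.2% for Eno1, 68.0% for Pgk1 and 41.5% for Pgam1. It was 25.3% for Gpi1, 16.6% for Ldha, 13.5% for Aldoa and 7.5% for Tpi1, and near 0% for Pfkl and Hk2. Among 6383 tested genes the median was 0.28%, and 5.61% of them were above 50%. The values of Gapdh, Pgk1, Eno1 and Pgam1 are therefore uncertain in level, and Ldha, Aldoa and Tpi1 rest on largely distinct sequence. Apart from Eno1 and a short overlap of Tpi1 with Spsb2 (0.6% of the Tpi1 span), no other entry of the tables overlapped a member.

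**Figure D4:**
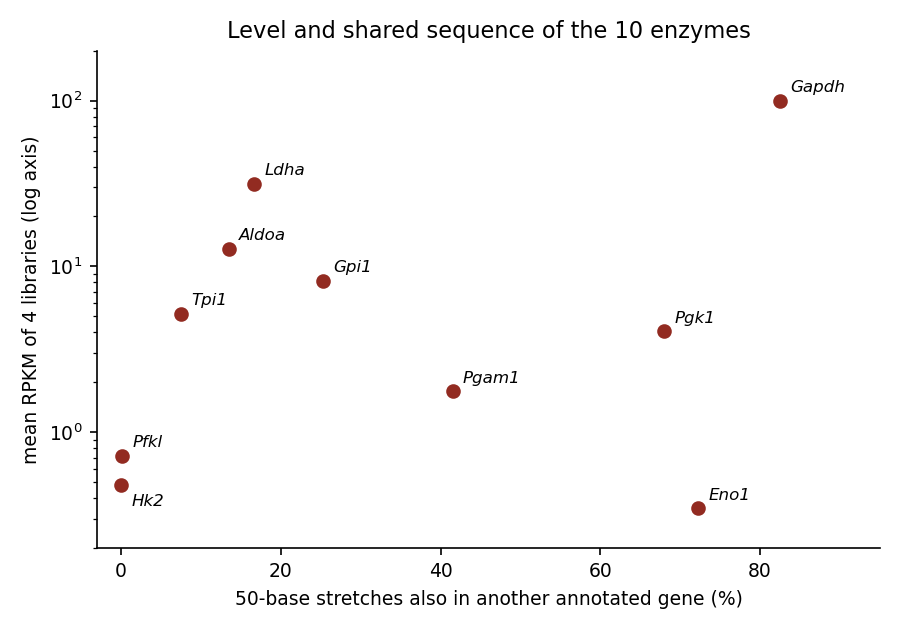
Mean RPKM over the 4 libraries (log axis) against the percent of 50-base stretches of the transcript that occur in another annotated gene, 1 point per enzyme. Gapdh lies at the top right with 82.5%, Ldha, Aldoa and Tpi1 combine a high level with 16.6% or less, and Eno1 is low with 72.2%.

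At several steps another isoenzyme could carry the reaction, and shares within a library do not depend on scaling. Lactate dehydrogenase was almost purely Ldha, with 100% in both Irf8 cKO libraries and in Ctrl 1 and 99.7% in Ctrl 2. Ldhb, the subunit that favours pyruvate, was listed at 0 in 3 of the libraries and at 0.0244 RPKM in Ctrl 2. Aldoa held 95.7 ± 0.177% of aldolase RPKM in Irf8 cKO and 95.5 ± 2.74% in Ctrl (SD, n = 2 each). Gapdh and Pgk1 each held 99.5% or more of their step in every library. Pfkl was not the main phosphofructokinase, with 22.5% and 31.0% of the step in Irf8 cKO 1 and 2, against 18.3% and 24.4% in Ctrl 1 and 2. Pfkp, the platelet-type subunit found in many dividing cells, measured 1.85 and 1.45 RPKM in Irf8 cKO, against 2.93 and 2.97 RPKM in Ctrl. Both Irf8 cKO values of Pfkp lay below both Ctrl values, as for 44.7% of tested genes. Its log2 ratio of -0.58 ± 0.28 (SE, limma adjusted p = 0.249) was not called, nor was the scaled one of -0.22 ± 0.15 (adjusted p = 0.640).

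Hexokinase was divided between Hk2 and Hk1, the form of most tissues. Hk2 held 52.8% and 35.0% of the step in Irf8 cKO 1 and 2, against 42.5% and 57.2% in Ctrl 1 and 2, in opposite directions in the experiments. Pgam1 held 86.5% and 48.02% of its step in Irf8 cKO, against 66.1% and 75.1% in Ctrl, the rest being Pgam2, the muscle form, at 0.289 to 1.14 RPKM. These shares overlapped between groups, and apart from Pgam1 at up to 2.23 RPKM they come from values near or under 1 RPKM. Pyruvate kinase Pkm, the ATP-yielding step before Ldha, measured 14.0 and 5.11 RPKM in Irf8 cKO 1 and 2, against 12.5 and 10.5 RPKM in Ctrl 1 and 2. Pkm was the highest in Irf8 cKO 1 and the lowest in Irf8 cKO 2, and its scaled log2 ratio was 0.07 ± 0.20 (SE; limma adjusted p = 0.917).

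Around the pathway, most steps also lacked a call. The 16 enzymes of the tricarboxylic acid cycle were all tested. As deposited 1 was called lower and none higher, beside 70 and 6 of all 6446 tested genes. After scaling none was called, and 1 was lower at an unadjusted p under 0.05, beside 295 of all tested genes. The called gene was Fh1, fumarate hydratase, with 2.89 and 1.73 RPKM in Irf8 cKO 1 and 2, against 6.36 and 5.49 RPKM in Ctrl 1 and 2. Its groups lay far apart, with a log2 ratio of -1.08 ± 0.30 (SE; limma adjusted p = 0.0356) as deposited. After scaling the ratio of Fh1 was -0.69 ± 0.15 (limma adjusted p = 0.233), at -0.69 in experiment 1 and -0.68 in experiment 2, so the call was lost while the experiments stayed close together. The call of Fh1 was also lost without the block (limma adjusted p = 0.395), at a pseudocount of 0.1, under sum scaling, with no filter, and without Irf8 cKO 2, Ctrl 1 or Ctrl 2. Mdh2, malate dehydrogenase and the most abundant enzyme of the cycle, measured 15.6 and 12.2 RPKM in Irf8 cKO, against 23.1 and 15.5 RPKM in Ctrl, and was not called (limma adjusted p = 0.423).

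**Figure D5:**
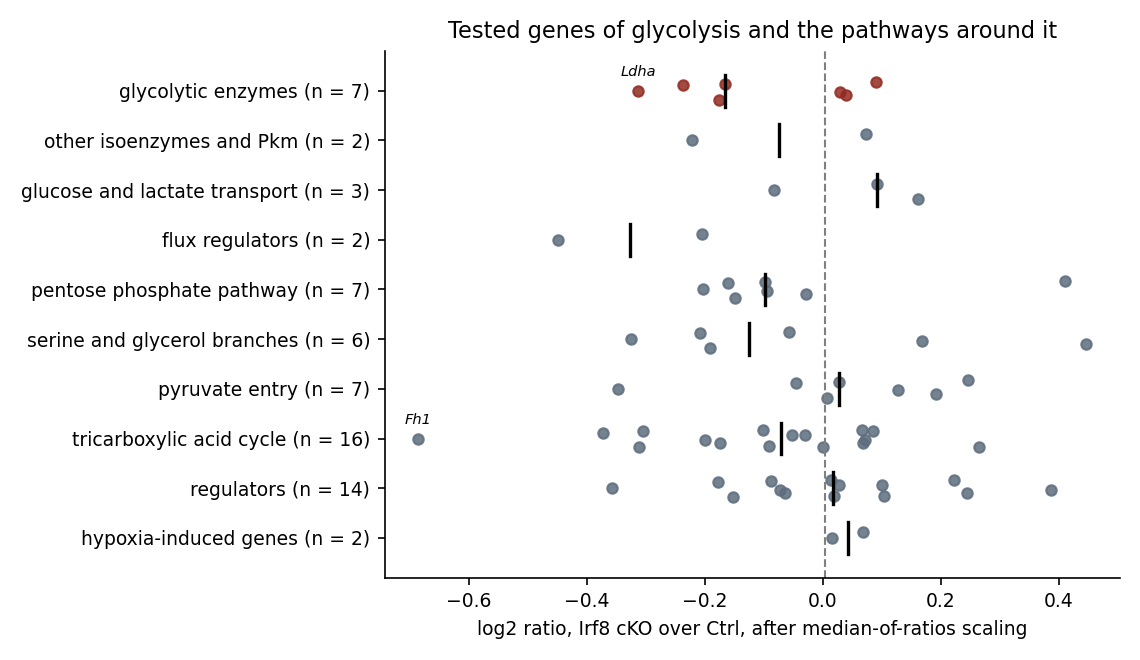
Log2 ratio of Irf8 cKO over Ctrl on the log2(RPKM + 1) scale after median-of-ratios scaling for every tested gene (points) of glycolysis and of the lists around it; black bars are list medians, the dashed line is the median of all 6446 tested genes, and n is the number of tested genes. The glycolytic enzymes run from -0.31 (Ldha) to 0.09 around a median of -0.16, and Fh1 at -0.69 lies lowest of all genes drawn.

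No gene was called in either direction, as deposited or scaled, among the tested genes of glucose and lactate transport (3 of 9 measured), flux regulators (2 of 12), the pentose phosphate pathway (7 of 7), the serine and glycerol branches (6 of 8) and pyruvate entry (7 of 14). At an unadjusted p under 0.05 as deposited, 0, 2, 1, 2 and 1 of these genes were lower, in the same order, and none was higher. Of all 6446 tested genes 1197 were lower and 17 higher at that level. After scaling none of the genes of these lists was lower at that level, and Pgls and Shmt1 were higher. Of all tested genes 295 were then lower and 383 higher. Pgls and Shmt1 had log2 ratios above 0 as deposited too. The genes of these lists that were lower at that level as deposited stayed below 0 after scaling. Slc2a1, the glucose transporter GLUT1, measured 1.92 and 1.18 RPKM in Irf8 cKO 1 and 2, against 1.88 and 1.74 RPKM in Ctrl 1 and 2. As deposited Irf8 cKO 2 alone was low, and it was the lowest library for 85.4% of tested genes. The scaled log2 ratios of Slc2a1 were 0.18 in experiment 1 and 0.14 in experiment 2. Bsg, the chaperone of lactate transporters, measured 2.58 and 1.71 RPKM in Irf8 cKO, against 3.63 and 2.94 RPKM in Ctrl. Bpgm, which draws off the substrate of Pgk1 as bisphosphoglycerate, measured 2.67 and 0.686 RPKM in Irf8 cKO, against 3.30 and 3.09 RPKM in Ctrl. Its 2 experiments differed widely after scaling, at -0.03 and -0.86, and Bpgm was not called (limma adjusted p = 0.157 as deposited).

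In the pentose phosphate pathway Tkt, transketolase, measured 5.39 and 3.08 RPKM in Irf8 cKO 1 and 2, against 7.35 and 6.07 RPKM in Ctrl 1 and 2. Pgls, the lactonase of the same pathway, measured 3.19 and 2.61 RPKM in Irf8 cKO, against 3.28 and 2.43 RPKM in Ctrl. Both Irf8 cKO values of Tkt lay below both Ctrl values, as for 44.7% of tested genes, while the groups of Pgls overlapped. Neither was called (limma adjusted p = 0.278 for Tkt and 0.959 for Pgls). In the branch to serine, Psat1, the aminotransferase, measured 11.9 and 4.66 RPKM in Irf8 cKO, against 16.9 and 9.09 RPKM in Ctrl. Shmt1, which passes the carbon of serine to folate, measured 1.15 and 1.24 RPKM in Irf8 cKO, against 0.882 and 1.03 RPKM in Ctrl. Shmt1 was above both Ctrl values in both Irf8 cKO libraries, at a scaled log2 ratio of 0.45 ± 0.16 (SE, limma adjusted p = 0.400). After scaling, 15.8% of tested genes had both Irf8 cKO values above both Ctrl values. Pdhb, a subunit of pyruvate dehydrogenase, measured 7.06 and 3.17 RPKM in Irf8 cKO, against 9.52 and 8.50 RPKM in Ctrl. Both Irf8 cKO values of Pdhb lay below both Ctrl values, again as for 44.7% of tested genes, and it was not called (limma adjusted p = 0.210).

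The regulators and the hypoxia-induced genes outside glycolysis showed no call as deposited or after scaling, with 14 of 19 and 2 of 12 measured genes tested. At an unadjusted p under 0.05 as deposited, 1 regulator was lower and none higher, and no hypoxia-induced gene was past it. Of all 6446 tested genes 1197 were lower and 17 higher. After scaling 1 regulator was lower and 1, Mtor, higher, beside 295 lower and 383 higher of all tested genes. The lower one in both was Hif1a, the hypoxia factor, named here after its values were seen, with 3.22 and 1.62 RPKM in Irf8 cKO 1 and 2, against 5.19 and 3.98 RPKM in Ctrl 1 and 2. Both Irf8 cKO values of Hif1a lay below both Ctrl values, as for 44.7% of tested genes. Its log2 ratio was -0.74 ± 0.30 as deposited (SE, limma adjusted p = 0.198) and -0.36 ± 0.15 after scaling (adjusted p = 0.463). Foxo1, a transcription factor that restrains growth, was the most abundant regulator, at 12.0 and 6.21 RPKM in Irf8 cKO 1 and 2, against 14.8 and 11.6 RPKM in Ctrl 1 and 2. Mtor, the kinase that promotes glycolytic gene expression, measured 1.37 and 1.68 RPKM in Irf8 cKO, against 1.19 and 1.65 RPKM in Ctrl. The Mtor groups overlapped, with a scaled log2 ratio of 0.39 ± 0.16 (SE; limma adjusted p = 0.461). Kdm3a, a hypoxia-induced histone demethylase, measured 1.62 and 1.03 RPKM in Irf8 cKO, against 1.88 and 1.78 RPKM in Ctrl, a scaled log2 ratio of 0.02 ± 0.15 (SE; limma adjusted p = 0.980).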

How the data were processed

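Per the labels' protocols, RNA of the 4 sorted GC B cell samples was amplified (Ovation RNA-Seq System v2) before Nextera XT library preparation. The authors deposited RPKM per RefSeq entry in 1 table per experiment, made in Wardrobe per the series' design text, with a log2 ratio and a p-value per entry from the authors' comparison of 1 library with 1 library, per the file headers. For these tables, the aligner, the RPKM denominator and the rule for reads matching several genes are not given in the sources used here. Per the submitters' processing notes the series used Cufflinks 2.2, Cuffdiff, DESeq and TopHat2 2.0 with mm10 and mm9, whose roles are not stated, and the tables carry mm10 coordinates. The authors' deposited log2 ratio exceeds that of the RPKM by a constant, 0.205 in experiment 1 (97.1% of genes at 1 RPKM or more lie within 0.05 of it) and 0.721 in experiment 2 (96.2%). The authors' deposited p-value is unadjusted.

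From 23471 entries per table, those sharing a symbol (2 symbols) were summed. Genes at 1 RPKM or more in at least 2 libraries (6446) were fitted with limma 3.58.1 in R 4.3.3 (lmFit, eBayes with a variance trend, 2-sided) on log2(RPKM + 1), which understates changes of low genes, with Benjamini-Hochberg adjustment over all of them at 0.05. The experiment was the block, since the labels carry experiment numbers and the tables follow them. Same-numbered libraries deviated together (correlation 0.377 as deposited and 0.331 scaled). The prior degrees of freedom were infinite as deposited, so that SEs came from the trend over genes of like level, and 6.44 after scaling. Only 67.3% to 69.9% of low values came out as whole reads within 0.1 reads, so reads were not recovered, depths are estimates and no count model was run. Shared sequence was taken as exact 50-base matches between annotated GENCODE transcripts of GRCm38, and promoters came from RefSeq for GRCm38.p6. Other steps used pandas 2.3.3, numpy 2.4.6 and matplotlib 3.10.9 in Python 3.11.15, and the fit was tested on simulated data.

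The members and lists were chosen with earlier results of these data known. All members are named, and of each other list the called genes, the tested gene with the largest scaled ratio of like sign in both experiments and the one with the highest mean RPKM. Isoenzymes named beside their member, Gm5506, Hif1a, Ndrg1, Slc2a3 and Pfkfb3 were added after their values were seen. Alternatives were other scalings, pseudocounts, filters, variance models, no block and each library left out. One item is not reported here.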

Additional observations from a re-analysis of the deposited data

How the results depend on the processing

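No member was called under the settings run, with 3 exceptions, all lower in Irf8 cKO: Ldha without the variance trend (1 member, adjusted p = 0.0424), and Pgk1 and Pgam1 without Irf8 cKO 1 (2 members, adjusted p = 0.0110 and 0.0289). Fits without 1 library have no block and assume that a lone library varies like the other group. Over them the members called lower ran from 0 to 2, all genes called lower from 0 to 1450 (1450 without Irf8 cKO 1, 13 without Irf8 cKO 2, 0 without Ctrl 1 and 5 without Ctrl 2) and all genes called higher from 0 to 9. After median-of-ratios scaling the same fits called 1 to 10 genes lower and 1 to 6 higher. The median of the tested members minus that of all tested genes, -0.13 with all libraries, ran from -0.41 to 0.08, and from -0.31 to 0.11 after scaling, so its sign rests on single libraries, being above 0 without Irf8 cKO 2 or without Ctrl 1.

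Against 70 genes lower and 6 higher, median-of-ratios scaling called 3 and 1, and scaling to equal sums without Rn45s 42 and 45. Without the replicate block 19 and 2 were called, and 4 and 2 with scaling, and leaving the block out changed no call of a member but ended those of Fh1 and Ms4a1. A pseudocount of 5 called 124 lower. With no filter 0 and 0 were called (1180 and 225 at an unadjusted p under 0.05), and with scaling too 0 and 0 (575 and 605 unadjusted). A filter at 5 RPKM called 26 and 0. Without the variance trend 277 were called lower, and with scaling 0 and 0 (292 and 364 unadjusted). Eno1 and Gm5506 summed gave 3 and 1 with scaling. The members' median minus that of all genes was -0.17 with median-of-ratios scaling (block or trend left out as well), -0.16 with sum scaling, -0.22 at a pseudocount of 0.1, -0.40 with no filter, -0.017 with no filter and scaling, 0.10 with the filter at 5 RPKM and -0.16 with the enolase entries summed. Filters change which members enter and also which genes form the all-gene median, 23469 with no filter and 1669 with the filter at 5 RPKM. These values are therefore not shifts of the members alone. The cause of the other differences was not tested. Summing the enolase entries, and scaling with no filter, were chosen after seeing the data.

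Ratios above 0 in place of below it came with median-of-ratios scaling, under every form of it with all libraries, for Gpi1 (0.039), Aldoa (0.091), Tpi1 (0.029), Pkm (0.074), Slc2a1 (0.16), Mdh2 (0.067), Kdm3a (0.016) and Igj, the J chain of plasma cells (0.071). Sum scaling gave 0.061, 0.11, 0.052, 0.097, 0.18, 0.090, 0.029 and 0.094 for these genes in the same order. Leaving out 1 library, with and without scaling, log2 ratios ran from -0.89 to 0.22 for Gpi1, -0.87 to 0.49 for Aldoa, -0.78 to 0.33 for Tpi1, -1.14 to 0.19 for Pgk1, -1.03 to 0.42 for Pkm, -0.36 to 0.18 for Slc2a1, -0.70 to 0.26 for Mdh2, -0.48 to 0.041 for Kdm3a and -0.88 to 0.41 for Igj. They ran from -0.14 to 0.57 for Pgls, -0.27 to 0.58 for Lck, -0.31 to 0.66 for Irf8, -0.073 to 0.71 for Mtor, -1.249 to 0.14 for Psat1, -0.97 to 0.041 for Foxo1 and -3.38 to 0.13 for S100a8. Gapdh, Pgam1 and Ldha stayed below 0 in all settings. Genes at low estimated reads are limited by depth. Eno1, at an estimated 27 to 143 reads where listed above 0, also shares its locus with Gm5506, which held nearly all of the signal.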

Other observations

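Among the hypoxia-induced genes fixed as a list, Ndrg1, a stress-induced gene that restrains cell growth, lay under the filter and was singled out after its values were seen. It measured 0.729 and 0.485 RPKM in Irf8 cKO 1 and 2, against 0.315 and 0.0545 RPKM in Ctrl 1 and 2. Both Irf8 cKO values lay above both Ctrl values, all under 1 RPKM, and how many of all genes did so as deposited was not counted. The 12 measured genes of the list, Ndrg1 included, went the other way in sum. They reached 5.05 and 3.17 RPKM in Irf8 cKO 1 and 2, against 6.62 and 4.34 RPKM in Ctrl 1 and 2. The authors' ratios below include their constants of 0.205 and 0.721, and that of experiment 2 rests on the 0.0545 RPKM of Ctrl 2. The authors' deposited table gives Ndrg1 a log2 ratio of 1.41 (unadjusted p = 0.0352) in experiment 1 and 3.87 (unadjusted p = 0.000461) in experiment 2. Slc2a3, the glucose transporter GLUT3, was under the filter too, at 0.714 and 0.291 RPKM in Irf8 cKO, against 0.931 and 0.319 RPKM in Ctrl, and differed between experiments more than between genotypes. Pfkfb3, which makes the activator of phosphofructokinase, measured 0.645 and 0.861 RPKM in Irf8 cKO, against 0.786 and 0.498 RPKM in Ctrl. The ratio of Ldha to Gapdh was 0.342 and 0.256 in Irf8 cKO 1 and 2, against 0.343 and 0.287 in Ctrl 1 and 2, nearly equal in experiment 1 and lower in experiment 2 in both genotypes. Of the markers of other cells, Lck measured 5.06 and 2.69 RPKM in Irf8 cKO, against 3.66 and 3.21 RPKM in Ctrl, and Igj 22.0 and 11.1 RPKM in Irf8 cKO, against 28.9 and 15.7 RPKM in Ctrl; neither was called. Of GC B cell genes, Cd79b measured 69.9 and 45.5 RPKM in Irf8 cKO, against 101.8 and 84.9 RPKM in Ctrl, and was not called (limma adjusted p = 0.241). Ms4a1, the B cell surface protein CD20, was called lower as deposited, at 49.0 and 23.4 RPKM in Irf8 cKO, against 96.5 and 67.6 RPKM in Ctrl (log2 ratio -1.23 ± 0.34, SE; limma adjusted p = 0.0356), but not after scaling (-0.72 ± 0.22, SE; limma adjusted p = 0.398). The call of Ms4a1 was also lost without the block (limma adjusted p = 0.614), at a pseudocount of 5, under sum scaling, with no filter, and without Irf8 cKO 2, Ctrl 1 or Ctrl 2.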
